A study of Mus musculus with 52 samples.

Results

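Mouse embryonic fibroblasts (MEFs), cells grown out of embryos and kept in culture, were compared between wild type and Tug1-/-. MEFs were the 6 of 52 samples of the series that carry this cell type in their labels, 3 per genotype, and all were male and at passage 2. Both genotypes came from crosses of heterozygous mice on a C57BL/6J/129S6 background (N3-C57BL/6J, no Neo). In the Tug1-/- strain (Tug1_tm1.1Vlcg) a lacZ cassette stands in for the body of the gene, and the promoter and first exon remain, so that both loss of the RNA and loss of the underlying DNA are present in the knockout. Poly(A) RNA was sequenced, and adult eyes, heart, liver, prostate, spleen and testes of the same series are used below only for comparison.

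The values read for MEFs were the authors' mean TPM (a read level per transcript length, scaled to a fixed total in each library) of each genotype and the authors' mean normalised count over all 6 libraries. Values of single libraries were not analysed here. No replicate error, p-value or test across libraries is therefore given for any gene below, and a difference carried by 1 of 3 libraries cannot be told apart from one shared by all 3. A gene is called higher or lower in Tug1-/- MEFs when the ratio of mean TPM, after addition of 0.1 TPM to both means, was past 1.5-fold. Calls were made among genes with a mean normalised count of at least 50 and at least 1 TPM in either genotype. These words describe the 6 cultures. The gene lists used below were chosen with earlier results of these data known, so their counts are descriptions. Since bulk RNA was measured, fewer cells of a type and less RNA per cell cannot be told apart.

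Tug1 is a long noncoding RNA that is made in most tissues and whose start lies head to head with the start of Morc2a, a protein-coding gene of the MORC family of chromatin ATPases. Fibroblasts of the embryo secrete collagen and other matrix proteins, and in culture they take on a contractile form with stress fibres. Cultures from whole embryos also hold other cells, among them macrophages, which settle in embryonic tissues early in development and which answer bacterial products and cytokines through NF-kappaB.

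The cultures carried the RNAs of matrix-producing, contractile fibroblasts. The gene with the highest mean TPM in wild-type MEFs was Acta2, smooth muscle actin, at 21815 TPM, followed by mt-Co1, Eef1a1, Lgals1, mt-Cytb, Thbs1, Rplp1, mt-Nd1, Col1a1 and Tmsb4x, and these 10 genes held 10.6% of all TPM. Of 18 fibroblast marker genes, 15 had a higher mean TPM in wild-type MEFs than in wild-type samples of each of the 6 adult tissues. Col1a1, a chain of type I collagen, stood at 6584 TPM in MEFs and at most at 244 TPM elsewhere. The exceptions were Dcn and Lum, which encode small proteoglycans of mature connective tissue, and Pdgfra. Dcn was at 18.2 TPM in MEFs and at 679 TPM in eyes. The Y-linked gene Ddx3y was present in both genotypes (69.7 and 50.9 TPM).

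Most genes differed little between the genotypes. Of 22253 genes in the table, 12260 passed the filter on low values, and the median of their log2 ratio was 0.05. Tug1-/- MEFs had 171 genes past the 1.5-fold limit on the higher side (1.39% of those that passed) and 295 on the lower side (2.41%), together 466 (3.8%). A 2-fold limit left 44 higher and 47 lower. Of the 171 higher genes, 23 reached 1 TPM only in Tug1-/- MEFs, and 34 of the 295 lower genes did so only in wild type. With 1 TPM instead of 0.1 TPM added, 30 of 135 calls covered by the rule for named genes ended, among them Acan, Adgre1, Cdh5, Cdkn1c, Col25a1, Foxd2, Ifit1, Ikbke, Il6, Krt8, Oasl2, Phf19, Prelp, Spon1, Usp29 and Pcdhb21. The share of genes past 1.5-fold depended on depth. It was 27.8% of the 6734 genes with a mean normalised count below 10, 11.9% between 50 and 200, 3.82% between 200 and 1000, and 0.947% at 5000 and above. Ratios of genes with low counts scattered more.

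**Figure D1:**
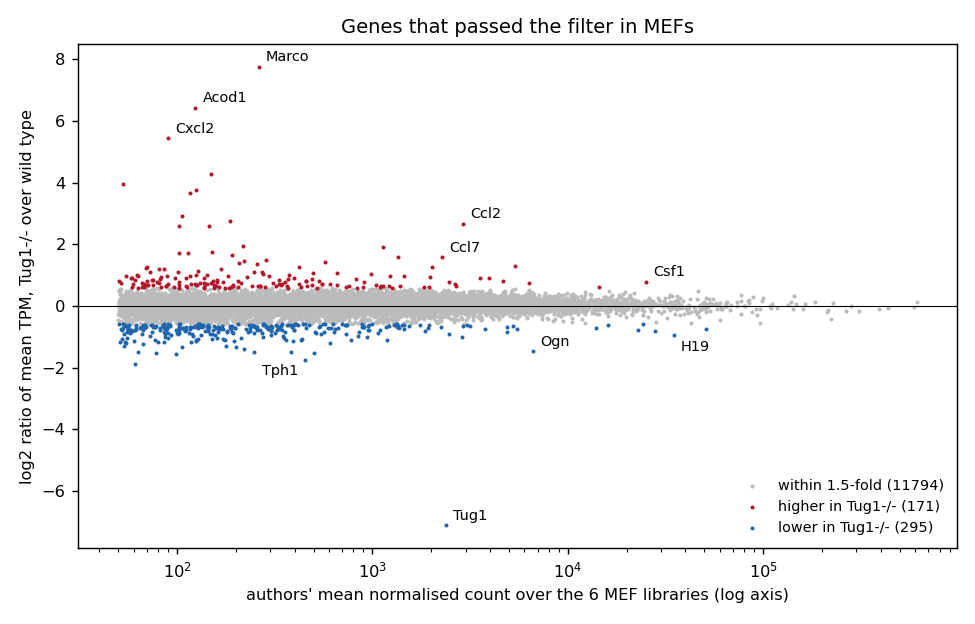
Log2 ratio of the authors' mean TPM (Tug1-/- over wild type, vertical axis) against the authors' mean normalised count over the 6 MEF libraries (log axis), for the 12260 genes that passed the filter. Red points are the 171 higher genes, blue points the 295 lower genes and grey points the rest. Tug1 stands alone at the bottom at -7.11 and Marco at the top at 7.75, and the scatter narrows with the count.

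Tug1 RNA was nearly gone from the knockout cultures. From a wild-type mean of 46.4 TPM the level went to 0.237 TPM in the knockout (chr11:3639785-3649673, minus strand, GRCm38), which left 0.512% of the wild-type level. In the adult tissues 0.0825% (liver) to 2.21% (testes) was left. Wild-type MEFs had the third highest Tug1 level of the 7 sample types, below eyes (57.5 TPM) and spleen (53.8 TPM) and above testes, prostate, heart and liver. Testes were normalised in a separate table, so their level is set beside the others only roughly.

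Of the 50 measured genes whose start lies within 1 Mb of the Tug1 start, 25 passed the filter, 3 were higher and 0 were lower. All 3 were among the 12 genes that start at lower coordinates, the side into which Tug1 is transcribed (Morc2a, at the Tug1 start, is counted there too), and 0 of the 13 genes at higher coordinates were past the limit. Rnf185, which encodes a RING-type ubiquitin ligase of the endoplasmic reticulum, had 45.3 TPM in wild-type MEFs against 86.1 TPM in the knockout (log2 ratio 0.93). Its start lies 197 kb from that of Tug1. The noncoding RNA 8430429K09Rik, which is read in the opposite direction from nearly the same start, had 5.72 and 10.95 TPM (0.93). Selenom, which encodes a selenocysteine-containing protein of the endoplasmic reticulum, had 222 and 387 TPM (0.80) and starts 135 kb from Tug1. Smtn, a smooth muscle actin-binding protein whose start lies 109 kb from that of Tug1, stayed within the limit at 92.3 and 115 TPM (0.31). Gm11946, antisense to Smtn, went from 0.373 to 1.11 TPM but had a mean normalised count of 33.2 and did not pass the filter. Whether the reads were counted by strand is not given in the sources used here, so Smtn and Gm11946 reads cannot be told apart where the genes overlap. The same limit holds where Morc2a is annotated as overlapping Tug1. It also holds for Rnf185 and 8430429K09Rik, which overlap at their starts in RefSeq.

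Morc2a lies on the other strand and runs away from Tug1. In the annotation of the table it starts 0.179 kb inside Tug1, while the RefSeq starts put it 0.623 kb upstream. It had 51.2 TPM in wild-type MEFs against 37.3 TPM in the knockout, a log2 ratio of -0.46. This was the most negative ratio among the 25 genes in the window that passed, and it was within the 1.5-fold limit. On the far side, the ratios of the 13 genes at higher coordinates that passed lay between -0.27 for Tcn2, which encodes a cobalamin transport protein, and 0.52 for Lif, a cytokine gene at 26.6 and 38.1 TPM.

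**Figure D2:**
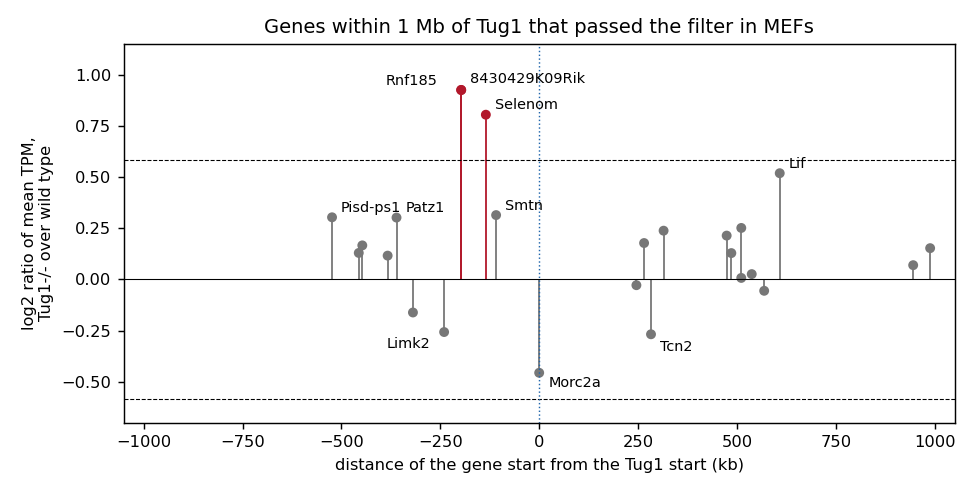
Log2 ratio of mean TPM (vertical axis) against the distance of each gene's start from the Tug1 start in kb (horizontal axis), for the 25 genes within 1 Mb that passed the filter in MEFs. Dashed lines mark the 1.5-fold limits, red stems the 3 genes past them. Rnf185 and 8430429K09Rik share 1 position at -197 kb, Selenom follows at -135 kb, and Morc2a lies at the origin with -0.46.

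Genes of inflammatory signalling stood out on the higher side. The list of secreted inflammatory factors had 22 genes in the table and 17 that passed the filter, of which 9 were higher and 1 was lower, against 1.39% and 2.41% of all genes that passed. Cxcl1, Cxcl2 and Cxcl5 reached 1 TPM only in the knockout and so could pass only as higher genes. Over all 22 genes, 19 had a ratio above 0, with a median log2 ratio of 0.59. Ccl2, the main attractant of monocytes, had 68.3 TPM in wild-type MEFs against 435 TPM in the knockout, a 6.37-fold difference (log2 ratio 2.67, mean normalised count 2912). Ccl7, its neighbour on chromosome 11 and also a monocyte chemokine, had 139 and 417 TPM (1.58). Csf1, the growth factor on which macrophages depend, had 338 and 581 TPM (0.78).

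The neutrophil-attracting chemokines were low in wild-type cultures. Cxcl1 had 0.811 TPM in wild-type MEFs against 11.4 TPM in the knockout. Cxcl5 had 0.253 and 5.35 TPM, and Cxcl2 0.0995 and 8.52 TPM. Their mean normalised counts were 116, 52.7 and 89.9, in the range of 50 to 200 where 11.9% of all genes were past the limit. At a mean normalised count of at least 200, 4 of the 9 higher secreted factors were left. Ccl20 (4.71 and 16.1 TPM), Ccl9 (7.98 and 13.2 TPM) and Il6 (5.16 and 7.97 TPM) were also higher. Ptgs2, the inducible cyclooxygenase, was the most abundant gene of the list and differed little, at 497 and 543 TPM (0.13). The 1 lower member was Cxcl14, a chemokine made constitutively by many tissues, at 63.4 and 36.8 TPM (-0.78).

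Because of these values, genes of the NF-kappaB pathway were collected afterwards in a further list of 31, which was chosen with the values known. Of these, 30 passed the filter, 10 were higher and 0 lower (1.39% and 2.41% of all genes that passed), and 27 had a ratio above 0. Several of the higher members are known targets and feedback inhibitors of NF-kappaB. Nfkbia, the inhibitor that holds NF-kappaB in the cytoplasm, had 40.6 and 123 TPM (log2 ratio 1.60). Nfkbie, a related inhibitor, had 6.92 and 15.0 TPM (1.11), and Tnfaip3, the A20 deubiquitinase that damps the pathway, 11.1 and 22.1 TPM (0.98). Zc3h12a, an RNase that degrades cytokine mRNAs, had 10.8 and 22.6 TPM (1.06). The subunits Relb (10.7 and 22.5 TPM) and Nfkb2 (58.7 and 96.8 TPM) and the coactivator Bcl3 (10.2 and 18.98 TPM) were also higher, as were Birc3, Ripk2 and Ikbke. The subunits Rela (0.26), Nfkb1 (0.41) and Rel (0.12) had log2 ratios within the limit.

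The promoters of the higher genes were searched for a NF-kappaB-type motif (GGG, any 2 bases, then TTTCC) on both strands, in RefSeq windows of 250 bases before to 50 bases after the start (GRCm38.p6). The motif was in 535 of all 32851 windows (1.63%). Among genes that passed the filter and had a window it was present for 182 of 9357 (1.95%), for 14 of 110 higher genes (12.7%) and for 3 of 191 lower genes (1.57%). All 6 higher secreted factors with a window, Ccl20, Ccl9, Csf1, Cxcl1, Cxcl2 and Il6, held it, and so did Nfkb2, Nfkbia and Tnfaip3 among 8 higher NF-kappaB genes with a window. Of 13 higher genes with a window in the list of genes induced in stimulated macrophages, described below, 3 held it, namely Marco and again Cxcl1 and Cxcl2, and 10 did not, among them Tnf, Il1b and Acod1. A match is a run of letters and does not show that a factor bound there. The windows of 4 of these genes are shown because they combine the motif with the differences given above, at chr5:90890995-90891294 (plus strand) for Cxcl1, chr5:90903649-90903948 (plus strand) for Cxcl2, chr12:55492598-55492897 (minus strand) for Nfkbia and chr1:83116516-83116815 (plus strand) for Ccl20. Each is written 5′ to 3′ along its gene, with the motif or its reverse complement in capitals. Cxcl1 and Cxcl2, neighbours on chromosome 5, each hold 2 matches, and the others hold 1.
Cxcl1: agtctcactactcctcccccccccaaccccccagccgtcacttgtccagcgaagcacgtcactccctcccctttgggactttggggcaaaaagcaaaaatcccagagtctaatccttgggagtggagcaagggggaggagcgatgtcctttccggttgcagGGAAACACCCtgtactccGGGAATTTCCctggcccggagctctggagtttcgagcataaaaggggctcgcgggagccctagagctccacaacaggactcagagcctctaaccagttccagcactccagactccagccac
Cxcl2: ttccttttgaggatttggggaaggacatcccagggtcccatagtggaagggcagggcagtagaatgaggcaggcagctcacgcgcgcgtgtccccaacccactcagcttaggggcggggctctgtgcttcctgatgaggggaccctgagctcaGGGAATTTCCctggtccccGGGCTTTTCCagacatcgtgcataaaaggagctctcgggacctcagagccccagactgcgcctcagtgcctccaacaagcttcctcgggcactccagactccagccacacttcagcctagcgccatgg
Nfkbia: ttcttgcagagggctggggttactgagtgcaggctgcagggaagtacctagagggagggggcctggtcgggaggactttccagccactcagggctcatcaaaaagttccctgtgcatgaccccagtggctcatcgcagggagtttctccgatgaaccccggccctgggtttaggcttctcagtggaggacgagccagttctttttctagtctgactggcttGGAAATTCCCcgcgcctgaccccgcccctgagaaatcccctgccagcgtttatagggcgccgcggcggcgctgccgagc
Ccl20: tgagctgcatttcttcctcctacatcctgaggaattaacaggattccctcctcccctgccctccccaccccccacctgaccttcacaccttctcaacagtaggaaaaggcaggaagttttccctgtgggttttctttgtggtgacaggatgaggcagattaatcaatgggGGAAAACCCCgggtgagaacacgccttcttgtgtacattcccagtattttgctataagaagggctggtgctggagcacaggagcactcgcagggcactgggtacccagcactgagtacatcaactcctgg

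All 16 genes of the list of macrophage and blood cell markers passed the filter, 3 were higher and 1 was lower (against 1.39% and 2.41% of all genes that passed), and 12 had a ratio below 0, with a median log2 ratio of -0.34. Summed over the list, wild-type MEFs held 881 TPM and knockout MEFs 901 TPM. Of these, 183 and 342 TPM came from Lyz2, the macrophage lysozyme (0.90), so the sum does not stand for the other members. Also higher were Cd14, a co-receptor for bacterial lipopolysaccharide, at 11.2 and 22.8 TPM (1.02), and Adgre1, which encodes F4/80, at 19.8 and 29.8 TPM (0.59). C1qa (132 and 99.7 TPM) and C1qb (132 and 102 TPM), complement genes of tissue macrophages, lay within the limit on the lower side.

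Further lists were made after the values were seen, so their counts are descriptions and support no division of macrophage genes. Of 35 measured genes known to be induced in stimulated macrophages, 20 passed the filter, 6 of them only through their level in the knockout, and 16 were called higher and 0 lower (1.39% and 2.41% of all genes that passed), with a median log2 ratio of 2.15. At a mean normalised count of at least 200, 8 passed, 4 were higher (Cd14, Clec4n, Marco and Tlr2) and the median was 0.49. Over all 35 genes 34 had a ratio above 0. Il12b and Cxcl3, cytokine genes listed at 0 in wild type, did not pass. Marco, a scavenger receptor of macrophages, had 0.0247 TPM in wild-type MEFs against 26.7 TPM in the knockout and had the highest ratio of all genes in the table. Acod1, which makes itaconate in stimulated macrophages, had 0.00949 and 9.33 TPM. The cytokine genes Il1b (0.670 and 14.8 TPM) and Tnf (0.949 and 14.2 TPM), the chemokine genes Ccl3 (6.10 and 41.9 TPM) and Ccl4 (4.23 and 26.0 TPM) and the receptor gene Tlr2 (4.82 and 13.6 TPM) followed. Nos2, the inducible nitric oxide synthase of stimulated macrophages, was listed at 0 in wild-type and at 0.0647 TPM in knockout MEFs.

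Of the other list, 34 genes of resident tissue macrophages were measured and 28 passed, with 0 higher and 14 lower, where 2.41% of all genes that passed were lower. Of the 14, 10 were left at a mean normalised count of at least 200, without P2ry12, Ly86, Slco2b1 and Cysltr1, and 10 with 1 TPM added. Apoe, an apolipoprotein also made by other cells, had 144 and 76.7 TPM (log2 ratio -0.90), and Fcrls, an Fc receptor-like gene of resident macrophages, 57.1 and 30.8 TPM (-0.89). Mrc1, the mannose receptor, had 16.9 and 10.6 TPM (-0.67). Trem2, a lipid-sensing receptor, had 6.23 and 3.69 TPM (-0.74), and P2ry12, a nucleotide receptor of microglia, 3.14 and 1.37 TPM (-1.14). The macrophage receptor genes Csf1r (30.6 and 25.0 TPM) and Cx3cr1 (21.7 and 16.6 TPM) lay within the limit, with log2 ratios of -0.29 and -0.38. The macrophage markers Adgre1 (0.59) and Lyz2 (0.90) were higher, as given above. The part of macrophages in the higher inflammatory genes was not tested.

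**Figure D3:**
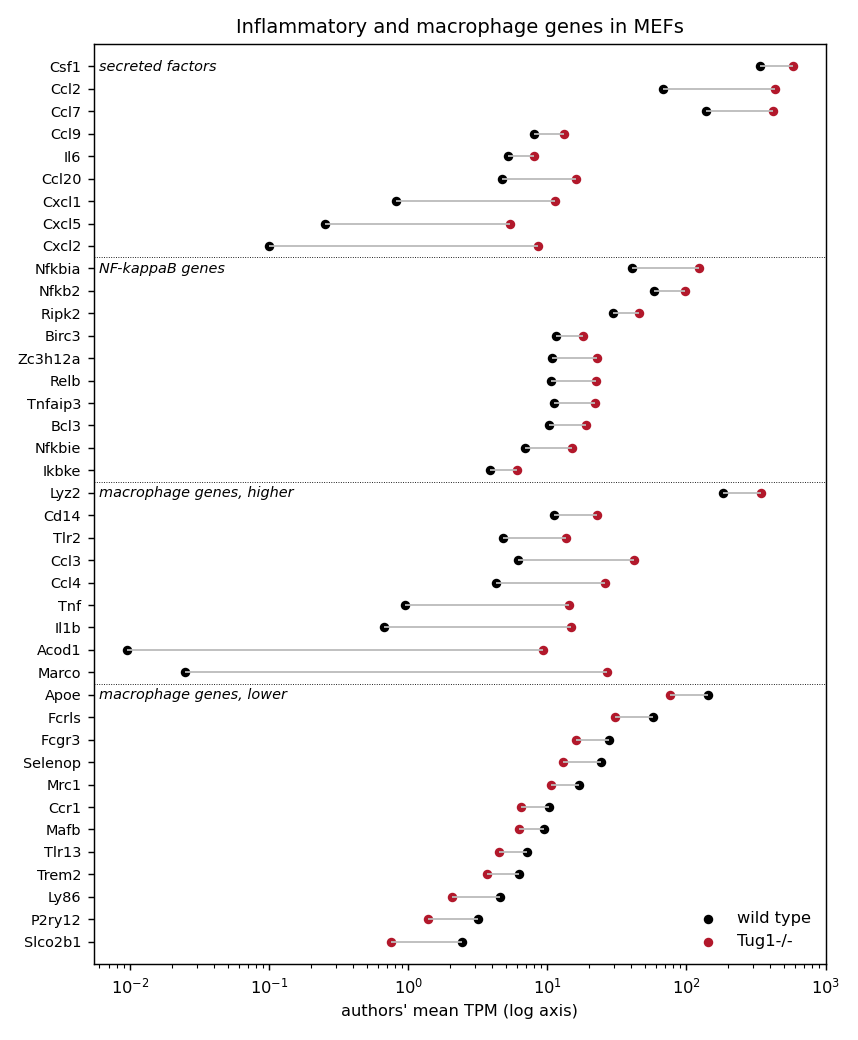
The authors' mean TPM in wild-type (black) and Tug1-/- (red) MEFs on a log axis, 1 row per gene, for higher secreted factors, higher NF-kappaB genes, and macrophage genes on either side. Marco, Acod1 and Cxcl2 span the widest gaps, from below 0.1 TPM in wild type to between 8.52 and 26.7 TPM in the knockout, while Apoe, Fcrls and the genes under them are lower in the knockout.

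Members of 5 of these lists (secreted inflammatory factors, NF-kappaB genes, interferon-stimulated genes, macrophage and blood cell markers, and genes induced in stimulated macrophages, without the resident macrophage genes) made up 39 of the 171 higher genes (22.8%) and 23 of the 44 genes higher by more than 2-fold (52.3%), while they were 0.791% of all genes that passed. Of the 39 and of the 23, 7 reached 1 TPM only in the knockout and could pass only as higher genes. The NF-kappaB and induced macrophage lists were picked from the values, and the others were chosen with earlier results of these data known. The shares are therefore descriptions and give no independent support. Of 18 interferon-stimulated genes that passed, 4 were higher and 0 lower, where 1.39% of all genes that passed were higher, and all 18 had a ratio above 0, with a median of 0.38. With 1 TPM added to both means 2 calls were left, and at a mean normalised count of at least 200 the list had 0. The higher members were Isg15, a ubiquitin-like modifier (14.8 and 26.4 TPM), Ifit1, an RNA-binding antiviral protein (3.26 and 5.37 TPM), Usp18, which removes Isg15 from proteins (1.41 and 2.91 TPM), and Oasl2 (1.56 and 2.65 TPM).

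The remaining highest genes by ratio, among those with a mean normalised count of at least 200, came from several groups. They included 4 retrotransposed copies. Hmga1b had 28.2 and 106 TPM, while Hmga1, the source gene for a chromatin architectural protein, had 257 and 337 TPM. Eno1b had 174 and 427 TPM, while the glycolytic gene Eno1 had 889 and 734 TPM. The processed pseudogenes Gm9825 (10.2 and 39.6 TPM) and Gm15487 (63.8 and 169.6 TPM) lie on chromosome 6. Such copies share sequence with other genes, and uniquely mapped reads can be split unevenly among them, so these values are uncertain. Rassf4, a RAS association domain gene (1.19 and 3.48 TPM), was also among the 12 highest. The noncoding RNA 3222401L13Rik (2.19 and 5.75 TPM) lies among the clustered protocadherins on chromosome 18. Of the 28 clustered protocadherins that passed, 4 were higher and 8 lower (1.39% and 2.41% of all genes that passed), and with 1 TPM added to both means 2 and 0. At a mean normalised count of at least 200 the calls left were Pcdhga12 higher, and Pcdhb17 and Pcdhb22 lower. Pcdhgb8 was highest (0.943 and 3.35 TPM), and Pcdhb21 lowest (1.55 and 0.792 TPM). These cell adhesion genes are near copies, and their values are uncertain for the same reason.

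The lowest genes by ratio were ranked among those with a mean normalised count of at least 200 and at least 2 TPM. Here Tug1 itself was followed by Tph1, at 10.9 TPM in wild-type MEFs against 3.14 TPM in the knockout (log2 ratio -1.76). Tph1 encodes the first enzyme of serotonin synthesis outside the brain. Of 10 genes of tryptophan and serotonin metabolism that passed, 2 were lower, against 2.41% of all genes that passed. The other was Maob (6.82 and 4.11 TPM), not called at a mean normalised count of at least 200. Mdk, the growth factor midkine, had 53.4 and 18.5 TPM (-1.53). Anxa8, an annexin, had 18.3 and 6.38 TPM (-1.51), and Crabp2, which carries retinoic acid to its nuclear receptors, 40.6 and 14.4 TPM (-1.49). Ogn, a small leucine-rich proteoglycan, was the most deeply measured of these, at 357 and 129 TPM (-1.47, mean normalised count 6623). Cep290, a gene of the ciliary transition zone, had 2.64 and 0.941 TPM (-1.40). Capn6, Cercam, Fxyd6 and Olr1 also belonged to the 12 lowest among genes at this depth and level, with log2 ratios from -1.19 to -1.10. Gzme, a serine protease gene, completed them at 57.03 and 25.7 TPM (-1.15). The other measured granzyme and mast cell protease genes, listed after the values were seen, went the same way. Of 10 in the table all 10 had a ratio below 0, and the 4 that passed, Gzme, Mcpt8, Gzmd and Gzmc, were all lower, against 2.41% of all genes that passed. At a mean normalised count of at least 200 Gzme and Mcpt8 were left.

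Fibroblast genes differed little. Of the 18 fibroblast genes, all passed, 0 were higher and 1 was lower, with a median log2 ratio of -0.09. Col1a1 had 6584 and 6290 TPM, Sparc 5788 and 5026 TPM, and Fn1 4924 and 5329 TPM. The lower gene was Fap, a surface protease of activated fibroblasts, at 20.6 and 12.1 TPM (-0.77). Contractile genes gave the same picture, with 0 of 15 higher and 1 lower, Des (94.1 and 61.5 TPM), and Acta2 at 21815 and 20521 TPM. Collagens had 0 of 29 higher and 4 lower, where 2.41% of all genes that passed were lower, and the abundant chains of types I and IV were within the limit. At a mean normalised count of at least 200, 2 of the 4 were left. The 4 were Col10a1 (7.92 and 3.15 TPM), Col11a1 (221 and 146 TPM), Col2a1 (18.6 and 11.8 TPM) and Col25a1 (1.18 and 0.717 TPM), of which the first 3 are known from cartilage. Acan, the cartilage proteoglycan aggrecan, was lower too (1.47 and 0.768 TPM), though not at a mean normalised count of at least 200 or with 1 TPM added, and all 6 cartilage and bone genes that passed had a ratio below 0. Among 36 matrix glycoproteins and proteoglycans that passed, 0 were higher and 6 lower, namely Ogn, Aspn, Fmod, Lama2, Prelp and Spon1, against 2.41% of all genes that passed. Prelp and Spon1 were no longer called at a mean normalised count of at least 200 or with 1 TPM added.

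Of 10 pericyte and mesothelium genes that passed, 5 were lower, against 2.41% of all genes that passed, and 0 higher, with a median log2 ratio of -0.73, and 2 lower genes were left at a mean normalised count of at least 200. Msln, mesothelin, had 26.7 and 12.6 TPM (-1.07), Upk1b 11.7 and 5.59 TPM (-1.05) and Upk3b 5.50 and 2.56 TPM (-1.08). Rgs5, a regulator of G-protein signalling in pericytes, had 81.3 and 40.3 TPM (-1.01), and Kcnj8, a potassium channel of the same cells, 4.24 and 2.22 TPM (-0.90). Cspg4, which encodes the pericyte antigen NG2, did not follow, at 53.6 and 71.6 TPM (0.42). Endothelial, muscle, fat and neural lists had at most 7 members each that passed and at most 1 call each. The call was Cdh5, the vascular endothelial cadherin, which was higher (0.908 and 1.79 TPM), as were 1.39% of all genes that passed. Keratin and other epithelial genes had 5 that passed and 1 lower, Krt8. Erythroid genes were all but absent, with 1 of 12 in the table and 0 that passed.

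Imprinted genes included abundant ones on the lower side. Of 25 that passed, 0 were higher and 5 lower (2.41% among all genes that passed), of which 3 were left with 1 TPM added. H19, a noncoding RNA of embryonic mesoderm, had 1794 and 940 TPM (-0.93, mean normalised count 34854). Peg3, a zinc finger gene, had 210 and 122 TPM (-0.78), Mest 57.7 and 32.9 TPM (-0.81) and Cdkn1c, a cell cycle inhibitor, 35.4 and 23.4 TPM (-0.59). Usp29, next to Peg3, had 1.03 and 0.623 TPM. The secreted Wnt antagonist Dkk3 (180 and 101 TPM) and the hedgehog-binding protein Hhip (1.78 and 0.727 TPM) were the 2 lower genes of 15 Wnt and hedgehog genes that passed (2.41% among all genes that passed), and Hhip was no longer called at a mean normalised count of at least 200.

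All 13 protein-coding genes of the mitochondrial genome had a ratio below 0, 11 passed the filter and 3 of these were lower, with a median log2 ratio of -0.55. Of all genes that passed, 2.41% were lower. After recentring on the median of all genes, 6 of the 11 were lower, as were 353 genes in all. Together the 13 took up 4.61% of the wild-type TPM and 3.20% of that of the knockout. The 3 were mt-Nd4 (2451 and 1400.2 TPM), mt-Nd5 (3333 and 1999 TPM) and mt-Nd6 (3211 and 1944 TPM), subunits of respiratory complex I. The 77 nuclear genes of oxidative phosphorylation that passed had a median of -0.06, with 0 higher and 1 lower, Cox6b2.

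Cell cycle genes had 0 higher members. Of 22 DNA replication genes 21 had a ratio above 0, with a median log2 ratio of 0.30 and 0 past the limit in either direction. Of 22 mitosis genes 19 had a ratio above 0, with a median of 0.24. The 2 lower members were the long mRNAs of the kinetochore proteins Cenpe (20.3 and 11.9 TPM) and Cenpf (6.84 and 3.75 TPM). Of all genes that passed, 2.41% were lower. Lower genes were also more frequent among AT-rich transcripts: of the 295, 118 were among the 3064 genes with the lowest GC content (at most 44.7%), a set that held 34 of the 171 higher genes. The part of base composition in these differences was not tested.

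Several lists that are often read as stress or growth states had few or no calls. Of all genes that passed, 1.39% were higher and 2.41% lower. Ribosomal protein genes had 0 of 81 calls and a median of 0.02, heat shock chaperones 0 of 16 (0.10), endoplasmic reticulum stress genes 0 of 19 (-0.10), ATF4 amino acid response genes 0 of 22 (0.17) and NRF2 antioxidant genes 0 of 19 (0.22). Cholesterol synthesis genes had 0 of 22 calls, though 20 of the 22 had a ratio below 0 (median -0.20). Among 18 p53 targets and cell cycle inhibitors, Gdf15 was higher (8.28 and 17.7 TPM) and Cdkn1c lower, and Cdkn1a, the main p53-induced inhibitor, was at 1156 and 1118 TPM. The Hox genes, which record position along the body axis, had 32 that passed with Hoxa4 higher and Hoxd13 lower, and neither was called at a mean normalised count of at least 200. Myc (75.0 and 117 TPM) was the 1 call among 22 immediate early genes, and Egln3 (13.9 and 24.7 TPM) the 1 call among 21 hypoxia targets. Matrix crosslinking genes (17 that passed), matrix proteases and their inhibitors (22), TGF-beta targets (23) and clock genes (15) had 0 calls. Among positional transcription factors, Foxd2 (2.23 and 3.81 TPM) was higher and the limb gene Tbx4 (5.08 and 2.90 TPM) was lower. Phf19, a Polycomb-associated protein, was the 1 call among 29 Polycomb genes (2.35 and 3.70 TPM). Foxd2, Tbx4 and Phf19 were not called at a mean normalised count of at least 200. Mir17hg, a microRNA host gene, was higher (4.10 and 7.20 TPM), and H19 was the 1 lower gene, among 21 other long noncoding RNAs.

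**Figure D4:**
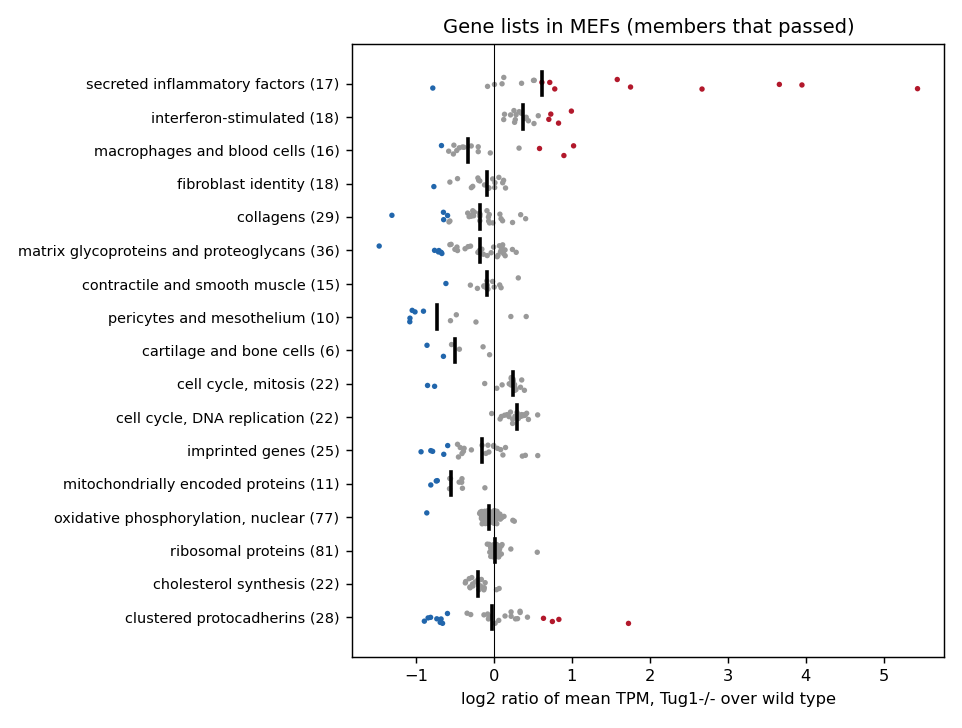
Log2 ratio of mean TPM for the members of 17 gene lists that passed the filter in MEFs (number in parentheses). Each point is a gene, red when higher and blue when lower by more than 1.5-fold, and the black bar is the list's median. Secreted inflammatory factors reach 5.43, and mitochondrially encoded genes all lie below 0.

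In the adult tissues the genes next to Tug1 had ratios of the same sign as in MEFs. Rnf185 had log2 ratios of 0.81 to 1.12, 8430429K09Rik of 0.63 to 1.22 and Selenom of 0.51 to 1.09 in the 6 tissues, and all 3 were above 0 in all 6. Morc2a was below 0 in all 6, from -3.33 in liver to -0.16 in testes. Rps4l, a ribosomal protein gene copy on chromosome 6, was at 123 and 294 TPM in MEFs (1.26), with ratios of 0.19 to 3.75 elsewhere. Ccl2 ranged from -0.76 in spleen to 1.18 in testes, where its mean was below 0.5 TPM in both genotypes, and Nfkbia from -0.20 to 0.56. Marco had 3.56 and 25.3 TPM in liver (2.80) and ratios of -0.37 to 0.66 in the 4 other tissues where it had a value. The noncoding RNA 3222401L13Rik was above 0 in all 6 tissues (0.25 to 2.32). Ogn ranged from -0.41 to 0.22 and Mdk from -0.62 to 0.33. Tph1 was at most at 2.00 TPM in wild-type samples of the other tissues. Eno1b was below 0 in all 6 tissues (-0.88 to -0.09) and Hmga1b between -0.13 and 0.39. Differences between tissues were not tested.

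**Figure D5:**
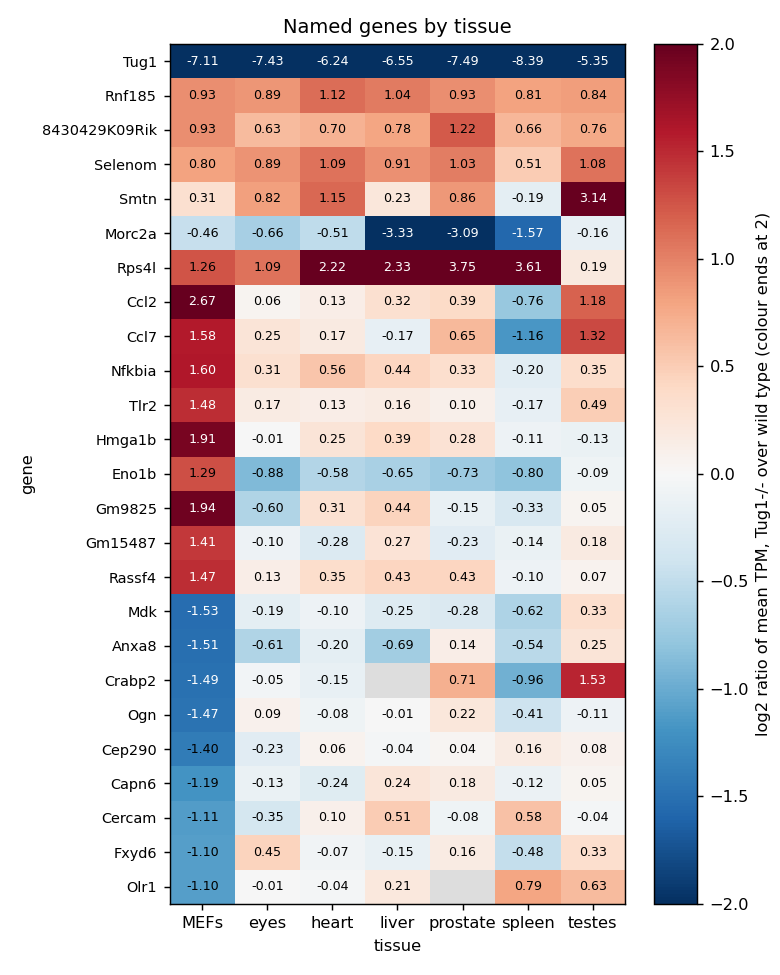
Log2 ratio of mean TPM (Tug1-/- over wild type) for 25 genes named in MEFs (rows) in MEFs and 6 adult tissues (columns), with the value in each cell, colour ending at 2 in either direction and grey where the gene has no row. Rnf185, 8430429K09Rik and Selenom are above 0 in every column, whereas Ccl2, Tlr2, Ogn and Cep290 have their most extreme value in MEFs.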

How the data were processed

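Poly(A) RNA libraries (TruSeq RNA kit v2) of 6 MEF cultures were read on a HiSeq. Per the paper's methods and the submitters' processing notes (CASAVA 1.8.2, STAR, featureCounts, DESeq2), the authors mapped reads to GRCm38, counted uniquely mapped reads per GENCODE gene, and left out genes that had under 3 reads in all replicates. From the deposited table the authors' mean TPM per genotype and the authors' mean normalised count (a signal divided by size factors, 38666994 summed over genes) were used. The deposited table also holds the authors' own comparison (log2 fold change, standard error, statistic, p-values, a label and a log2 ratio of mean TPM), which was not used. Single-library depths are unknown, so no interval is given. Rows of a brain comparison, which matches no sample of the series, were not used here.

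Log2 ratios were computed with Python 3.11.15, numpy 2.4.6 and pandas 2.3.3 as log2((Tug1-/- + 0.1)/(wild type + 0.1)), without rescaling, for genes with a mean normalised count of at least 50 and at least 1 TPM in either genotype. The calling step was run on simulated data that held no variation between cultures. That run checks the code and says nothing about the error of a call. Alternatives were pseudocounts of 0 and 1 TPM, other filters, a 2-fold limit, recentring, protein-coding genes alone and other windows. The planned analysis had no test for a table of group means. GC content came from the longest GENCODE transcript of a gene. Named genes were Tug1, genes within 1 Mb of it past the limit, the 12 highest and 12 lowest by ratio among genes with a mean normalised count of at least 200 and at least 2 TPM, the 10 most abundant genes, and list members past the limit or most abundant in a list. Genes outside this rule (the window genes within the limit, Gm11946, Eno1, Hmga1, Rps4l, list members within the limit, and the 4 further lists) were chosen after their values were seen. The members and lists were chosen with earlier results of these data known. Some genes that this rule names are not reported here.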

Additional observations from a re-analysis of the deposited data

How the results depend on the processing

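No paired analysis was possible because the values are group means, and for the same reason no library could be left out in turn. Without a pseudocount the log2 ratio of Tug1 was -7.61, and with 1 TPM added it was -5.26. With 1 TPM added, 113 genes were higher and 161 lower. At a mean normalised count of at least 10, 311 genes were higher and 6 genes within 1 Mb of Tug1 were past the limit. At 200 or more, 82 were higher and 138 lower. With no filter the counts were 1301 and 1519, and 15 within 1 Mb. With a limit of 2-fold they were 44 and 47, with 0 within 1 Mb. Recentring on the median gave 141 and 353, protein-coding genes alone 150 and 284, and leaving out the secreted inflammatory, NF-kappaB, interferon, macrophage and blood cell, and induced macrophage lists (resident macrophage genes kept), an alternative chosen after seeing the data, 132 and 293. Windows of 0.5 and 2 Mb kept 3 calls. A pseudocount added to both means cannot change the sign of a ratio. Recentring shifted every log2 ratio by 0.05, too little to change the sign of a call, so signs were not tested. Of 135 calls, 30 ended with 1 TPM added and 3 (Adgre1, Il6 and Ripk2) with recentring, and 52 genes had under 200 mean normalised counts. In the named genes the ratio moved by less than 0.1 in 996 of 1095 values. Of these, 365 were recentred values that could not move further. Of the list medians, 247 of 264 moved by less than 0.1, with 44 recentred ones fixed likewise. Of the list counts 59 of 528 moved by over 1.5 times. The median of the induced macrophage genes fell from 2.15 to 0.49 at a mean normalised count of at least 200. Group means and low counts limit these values.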
